A study of Mus musculus with 6 samples.

Results

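Nucleolar ribosome assembly genes are described here in lung group 2 innate lymphoid cells (ILC2s), the lymphocytes that release IL-5 and IL-13 in allergic airways. The 43 genes were taken by name: RNA polymerase I and its factors, the core proteins of the small nucleolar ribonucleoproteins (snoRNPs), abundant nucleolar phosphoproteins, and assembly factors of both ribosomal subunits. All 43 are among the 16381 genes of the deposited table, and all were among the 14419 genes tested. The genes were listed by their known function, not by a threshold on their values, but with earlier results of these data known.

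The question was how melatonin changes gene expression in activated ILC2s. WT BALB/c mice, aged 6 to 8 weeks and female by the methods, received intranasal IL-33 at 0.5 µg per day for 3 days, and ILC2s were sorted from their lungs as lineage-negative cells. Cells of the melatonin group were then kept for 24 h with 250 µM melatonin and those of the vehicle group with DMSO, its solvent, with IL-33 challenge of the donors common to both. Each group had 3 bulk RNA sequencing libraries, and the labels do not say whether these came from separate animals or cultures, so p-values measure only the spread between these samples.

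Ribosomes are built in the nucleolus. RNA polymerase I transcribes one long precursor of the ribosomal RNAs, snoRNPs modify its bases, and a large set of assembly factors fold it, cut it and load it with ribosomal proteins until the pre-40S and pre-60S particles leave for the cytoplasm. The process is among the most costly in a growing cell, and its genes are known to move with proliferation and with nutrient signals in lymphocytes.

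Values are normalized counts: reads assigned to a gene by the authors, divided by a size factor per sample. The libraries held between 17056267 and 20511700 estimated counts. All 15 ILC2 markers on a list of cell type markers were present, with a summed level of 227633 to 242708 in the vehicle samples and 154199 to 174017 with melatonin. These markers did not move as one. Among them *Il5*, *Il13*, *Il2ra*, *Il7r*, *Klrg1*, *Areg*, *Thy1* and *Id2* fell, the IL-33 receptor gene *Il1rl1* (log2 fold change 0.63) and *Rora* (0.64) rose, and *Gata3*, *Icos*, *Il17rb* and *Ptprc* were not called. Of the 8 T cell markers 4 were listed, with sums of 1209.7 to 1349 in vehicle and 458 to 870.3 with melatonin; *Cd4*, *Cd8a*, *Cd8b1* and *Cd5* were not listed. All 6 markers of NK cells and ILC1s were listed, with sums of 338 to 406 in vehicle and 24.1 to 36.1 with melatonin. The B cell receptor genes *Cd79a* and *Cd79b* together stood at 289 to 322 in vehicle and 131 to 162 with melatonin. For macrophages and dendritic cells 7 of 8 were listed, at 1448 to 1635 in vehicle and 362 to 851 with melatonin, and for granulocytes 6 of 10, at 46.8 to 106 and 6.54 to 54.3. Epithelial markers, 6 of 6, stood at 933 to 2316 and 1042 to 1237, a sum that joins opposite changes: *Epcam* rose by 0.72 on the log2 scale, while *Scgb1a1* (21.5 to 1045 in vehicle, 0 to 1.01 with melatonin), *Sftpc* (122 to 389, 3.02 to 6.54), *Sftpa1* (22.5 to 93.3, 0 to 3.28) and *Krt8* (4.67 to 105, 0 in all) fell. *Cdh1* was not called. *Pecam1* alone of 6 stromal and endothelial markers was listed, at 1001 to 1066 and 310.0 to 416. For red cells 3 of 5 were listed, at 31.9 to 55.1 and 24.04 to 56.0. The part of these other cells in the results was not tested.

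Transcripts of the sex chromosomes divided the libraries. *Xist*, the RNA that coats the silent X chromosome in female cells, stood at 0 in melatonin replicate 1, at 579 and 1091 in melatonin replicates 2 and 3, and at 13.6, 7.46 and 5.81 in the vehicle samples. *Ddx3y*, a gene of the Y chromosome, was at 1071 in melatonin replicate 1, at 0 in the other melatonin samples and at 861, 907 and 746 in the vehicle samples. The other 4 libraries therefore went against the sex given in the methods, and melatonin replicates 2 and 3 stood apart from them. The counts of lowered genes are given below with and without each kind. The library names of the vehicle samples carry a suffix that those of the melatonin samples lack. The labels do not say what it marks, and it cannot be told apart from treatment.

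Promoter stretches are printed for 4 of the genes to show the regulatory sequence of genes that fell beside that of 1 gene that was not called. *Nop2* and *Gar1* fell with melatonin, *Utp20* had the largest fall, and *Nop56* was not called. Each run is the 100 bases before the start of the canonical transcript, 5′ to 3′ on the gene's strand in GRCm39, the build of the authors' alignment. Capitals mark an E-box (CACGTG, a site type bound by MYC with MAX and by clock activators) or the core of an ETS factor site (CCGGAAG, or CTTCCGG where it lies on the other strand).
*Nop2* (chr6:125108720-125108819, plus strand): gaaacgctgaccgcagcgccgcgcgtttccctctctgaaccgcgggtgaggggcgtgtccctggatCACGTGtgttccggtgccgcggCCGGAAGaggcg
*Nop56* (chr2:130115735-130115834, plus strand): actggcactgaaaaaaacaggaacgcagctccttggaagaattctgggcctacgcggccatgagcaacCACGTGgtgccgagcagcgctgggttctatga
*Gar1* (chr3:129625046-129625145, minus strand): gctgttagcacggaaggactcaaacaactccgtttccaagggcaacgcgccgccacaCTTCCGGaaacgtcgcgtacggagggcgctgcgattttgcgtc
*Utp20* (chr10:88662700-88662799, minus strand): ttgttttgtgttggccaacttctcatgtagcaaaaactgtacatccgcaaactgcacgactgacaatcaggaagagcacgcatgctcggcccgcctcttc

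The *Nop2* stretch holds both motifs, with the E-box starting 34 bases and the ETS core 12 bases before the transcript. In *Gar1* an ETS core begins 43 bases before the start, in *Nop56* an E-box begins 32 bases before it, and the *Utp20* stretch holds neither motif.

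With melatonin, 37 of the 43 genes fell, none rose, and 6 did not pass the test (limma, adjusted p under 0.05). Of all 14419 genes tested, 24.7% fell and 24.5% rose. The median log2 fold change of the 43 genes was −0.67, with a range of −1.64 to 0.25, and the median of all genes tested was −0.005. At an unadjusted p under 0.05 the counts were 37 lower and 1 higher, but no share of all genes tested is given at that threshold. Limma's voom on estimated counts also gave 37 lower and none higher, beside 24.9% and 24.5% of all genes tested. All 3 melatonin values lay below all 3 vehicle values for 38 of the 43 genes, and for 30.3% of all genes tested. Among the 7487 genes at least as abundant as the lowest of the 43, 27.4% fell and the median was 0.04. A log2 fold change of −1 or lower was reached by 7 of the 43 genes, and by 9.65% of all genes tested with a call. In bulk samples such as these, fewer cells of a kind and less RNA per cell cannot be told apart.

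**Figure D1:**
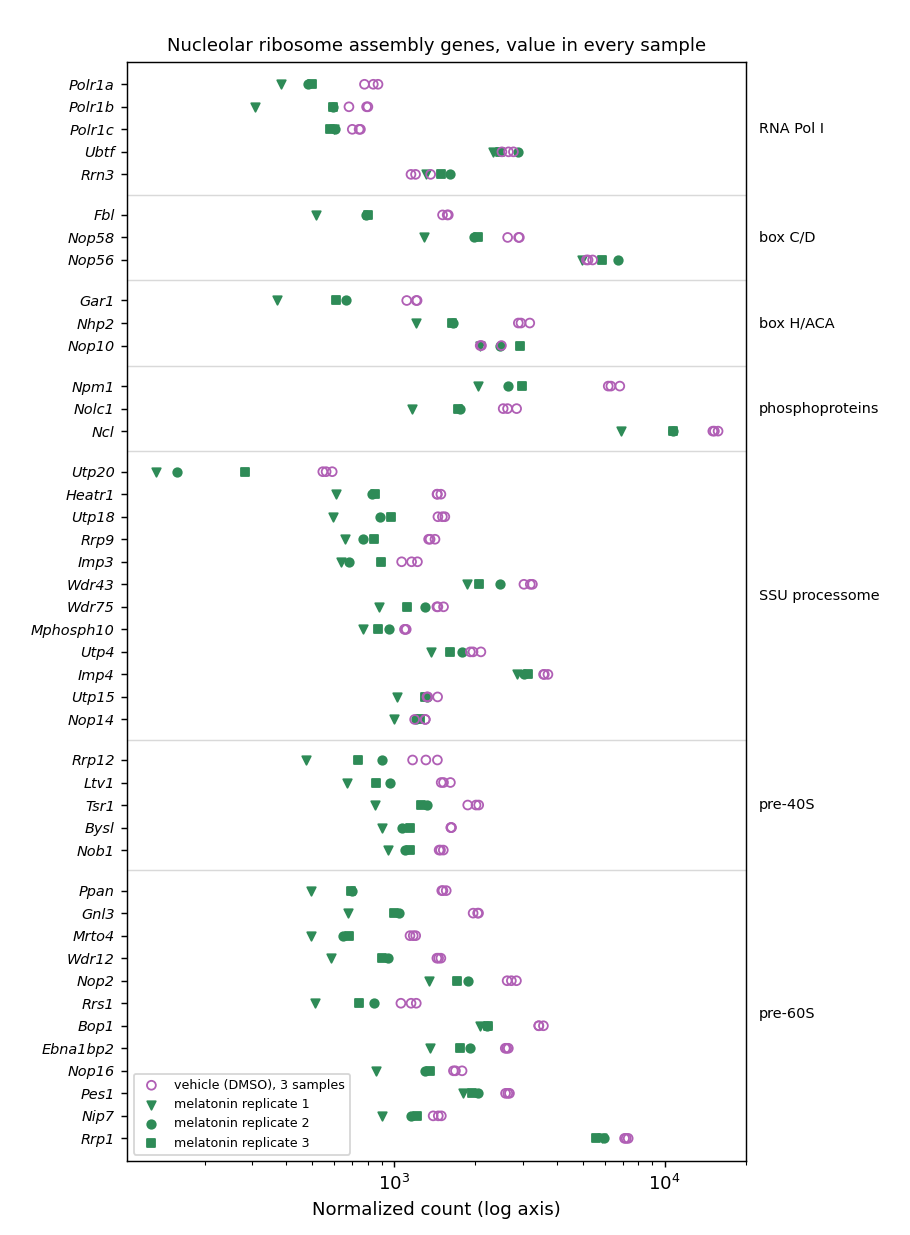
Normalized count (log axis) of each of the 43 genes, grouped by role; open circles are the 3 vehicle samples and filled symbols the 3 melatonin samples. The filled symbols lie left of all open circles for 38 genes, and the triangle of melatonin replicate 1 is lowest of the melatonin samples in 41.

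The abundant nucleolar phosphoproteins all fell. Nucleophosmin, *Npm1* (chr11:33100281-33113267), a chaperone that keeps the granular outer zone of the nucleolus together and binds pre-60S particles, was at 2046, 2641 and 2979 normalized counts in the melatonin samples and at 6832, 6333 and 6192 in the vehicle samples. The groups were far apart. Its level with melatonin, 2555 ± 473 (SD, n = 3), was 39.6% of that in vehicle, 6452 ± 336, with a log2 fold change of −1.35 (SE 0.13, limma adjusted p = 0.000114). Nucleolin, *Ncl* (chr1:86272441-86287208), which binds ribosomal DNA chromatin and the nascent precursor RNA, measured 6912, 10701 and 10698 with melatonin and 15275, 15070.4 and 15760.1 with vehicle. The melatonin samples were below all vehicle samples, with 1 of them well below the other two. Its log2 fold change was −0.73 (SE 0.16, limma adjusted p = 0.00497). *Nolc1*, a phosphoprotein that carries snoRNPs between Cajal bodies and the nucleolus, fell by 0.81 on the log2 scale (SE 0.15, limma adjusted p = 0.00251).

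Levels of different genes are compared here per kilobase of coding sequence. In vehicle, *Npm1* (7366 normalized counts per kilobase) and *Ncl* (7246) came after *Nop10* (11607) and differed from each other by less than the spread of either. *Nop10* has 192 coding bases in a transcript of 1259, and this order depends on the length used. With melatonin, *Npm1* stood at 2917, below *Nop10* (12943), *Ncl* (4449), *Rrp1* (3924), *Imp4* (3424), *Nop56* (3368) and *Nhp2* (3275). The last 3 of these and *Npm1* differed from one another by less than the spread of the more variable gene of each pair. At the low end, *Utp20* went from 67.7 to 22.8 per kilobase.

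The box C/D snoRNP, which methylates the sugar of selected ribosomal RNA bases, has 3 core proteins in the set, of which 2 fell. *Fbl* (chr7:27868353-27878701), the methyltransferase itself, was at 514, 789 and 799.9 with melatonin and at 1513, 1573 and 1588 with vehicle. All melatonin values were far under every vehicle value, and replicate 1 was lowest. The log2 fold change was −1.18 (SE 0.16, limma adjusted p = 0.000548). *Nop58*, a scaffold protein of the particle, measured 1293, 1973 and 2042 against 2889, 2907 and 2631, a log2 fold change of −0.69 (SE 0.16, limma adjusted p = 0.00713). *Nop56* (chr2:130115808-130121238), the paralogous scaffold protein that pairs with it, was at 4958, 6724 and 5897 with melatonin and at 5142, 5421 and 5217 with vehicle. These values overlap, and the log2 fold change of 0.14 (SE 0.11, limma adjusted p = 0.292) was not called. Without melatonin replicate 1 it was 0.26 and called higher, as it was with sample weights (0.24), and in melatonin replicate 1 alone the difference from vehicle was −0.08.

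Of the box H/ACA snoRNP, 3 core proteins are in the set, and 2 of these fell. This particle turns selected uridines into pseudouridine and also stabilises telomerase RNA. *Gar1* (chr3:129618560-129625045) was at 369, 668 and 612 with melatonin and at 1209, 1218 and 1115 with vehicle, a log2 fold change of −1.15 (SE 0.20, limma adjusted p = 0.00175). *Nhp2*, which binds the guide RNA, was at 1212, 1657 and 1641 against 3176, 2948 and 2882, a log2 fold change of −1.01 (SE 0.12, limma adjusted p = 0.000341). Both sets of melatonin samples lay wholly below vehicle. *Nop10* (chr2:112092271-112093764), the smallest protein of the core, was at 2074, 2469 and 2912 with melatonin and at 2496, 2106 and 2084 with vehicle. The groups overlapped, with a log2 fold change of 0.15 (SE 0.13, limma adjusted p = 0.365). After correction for transcript length it was 0.32 and called higher, and in melatonin replicate 1 alone the difference from vehicle was −0.10.

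Of RNA polymerase I and its factors, the 3 subunits fell and the 2 factors did not pass the test. *Polr1a* (chr6:71886021-71961919), the largest subunit of the enzyme, was at 383, 483 and 499 with melatonin and at 874, 779 and 839 with vehicle, and its log2 fold change was −0.88 (SE 0.12, limma adjusted p = 0.000609). *Polr1b*, the other large catalytic subunit, was at 307, 597 and 597 against 682, 793 and 802, a change of −0.66 (SE 0.24, limma adjusted p = 0.0434). *Polr1c*, a small subunit also part of RNA polymerase III, was at 599, 604 and 579 against 752, 744 and 702, a change of −0.30 (SE 0.09, limma adjusted p = 0.0193). The groups of all 3 subunits were apart, but calls were lost under some alternatives. The call of *Polr1b* was lost without any 1 of the vehicle samples (−0.62 to −0.74), without limma's trend (−0.66) and with scaling to the same total (−0.62). With each sample left out in turn, its change lay between −0.82 and −0.34. *Polr1c* lost its call without vehicle replicate 1 (−0.28) or 2 (−0.29). The call was also lost after correction for GC content (−0.21, limma adjusted p = 0.0764) or transcript length (−0.19, limma adjusted p = 0.0955). In melatonin replicate 1 alone the difference of *Polr1c* from vehicle was −0.29. *Ubtf* (chr11:102195386-102210568), the factor that bends and opens ribosomal DNA, was at 2314, 2870.1 and 2469 with melatonin and at 2506, 2651 and 2765 with vehicle, a log2 fold change of −0.05 (SE 0.10, limma adjusted p = 0.659). *Rrn3*, the initiation factor that joins the polymerase to the promoter complex and is regulated by growth signals, was at 1312, 1616 and 1495 against 1156, 1202 and 1367, a log2 fold change of 0.25 (SE 0.11, limma adjusted p = 0.0813). In both the groups overlapped. Without melatonin replicate 1, and with sample weights, *Rrn3* was at 0.33 and called higher, while *Ubtf* was at 0.01 and 0.02 and not called.

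To set partners of one machine side by side, the log2 ratio of partners was computed in each sample, for 8 pairs chosen after their values were seen. For that reason no test of these ratios is read as a result. *Nop56* over *Fbl* was 3.27, 3.09 and 2.88 with melatonin and 1.77, 1.78 and 1.72 with vehicle, a difference of 1.33. *Nop10* over *Nhp2* had a mean of 0.73 ± 0.13 (SD, n = 3) with melatonin and −0.43 ± 0.07 with vehicle. *Rrn3* over *Polr1a* was 1.70 ± 0.10 and 0.58 ± 0.16. A ratio within a sample does not depend on the size factor of that sample. Each pair sets a gene that was not called over a partner that fell, so the direction of all 8 differences was fixed by the choice. *Nop56* over *Nop58* (difference 0.84), *Nop10* over *Gar1* (1.30), *Ubtf* over *Polr1a* (0.82) and *Utp15* over *Heatr1* (0.77) had intermediate differences, and *Utp15* over *Utp4* the smallest (0.16).

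**Figure D2:**
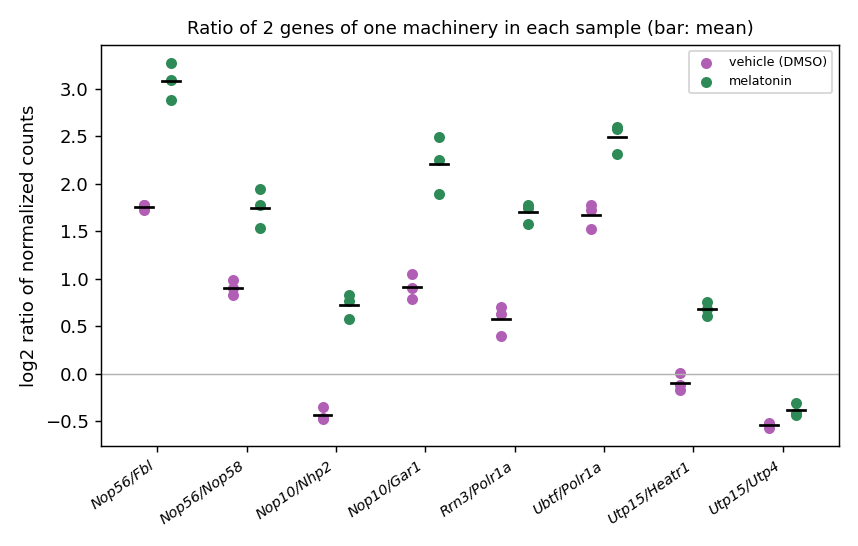
Log2 ratio of normalized counts of 2 genes of the same machine in each sample, for 8 pairs chosen after their values were seen; points are samples and bars group means (n = 3). Melatonin means lie above vehicle means, a direction fixed by the choice of pairs, by 1.33 for *Nop56* over *Fbl* and by 0.16 for *Utp15* over *Utp4*.

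The small subunit processome, the large particle that assembles on the nascent precursor and makes the cuts that free the small subunit RNA, had 10 of its 12 genes lower and a median log2 fold change of −0.51. *Utp20* (chr10:88582469-88662699), a very long repeat protein that wraps the particle, was at 132, 158 and 281 with melatonin and at 562, 546 and 592 with vehicle. All melatonin values were under every vehicle value by a wide gap. Its mean of 191 ± 79.9 (SD, n = 3) was 33.6% of the vehicle mean of 567 ± 23.1, with a log2 fold change of −1.64 (SE 0.24, limma adjusted p = 0.000832), the largest fall of the 43 genes. *Heatr1*, another long repeat protein, needed for polymerase I transcription too, fell by 0.95 on the log2 scale (609.8, 827 and 849 against 1492, 1443 and 1448). The WD-repeat proteins *Utp18* (−0.91), *Wdr43* (−0.58), *Wdr75* (−0.44) and *Utp4* (−0.34) and the U3 snoRNP protein *Rrp9* (−0.86) fell as well. *Imp3* (−0.65), *Imp4* (−0.28) and *Mphosph10* (−0.35), which form a complex that places the U3 snoRNA on the precursor, all fell, with *Imp4* (chr1:34478568-34488437) at 2838, 3012 and 3118 against 3707, 3595 and 3571.

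Some calls near the threshold were lost with 1 vehicle sample fewer, with similar fold changes. Without any 1 vehicle sample *Utp4* (−0.30 to −0.36) and *Wdr75* (−0.42 to −0.46) were not called, nor were they without limma's trend. With each sample of either group left out in turn, *Wdr75* lay between −0.57 and −0.29. With 1 vehicle sample fewer, 18.9% to 19.5% of all genes tested were lower, in place of 24.7%. The call of *Mphosph10* (−0.35) was lost without vehicle replicate 1 or 2, and that of *Imp4* (−0.26) without vehicle replicate 1. *Utp15*, a partner of *Utp4* in the subcomplex tied to transcription, was at 1029, 1321 and 1298 with melatonin and at 1324, 1450.4 and 1335 with vehicle. Its groups did not overlap, but the highest melatonin value came close to the lowest vehicle value and the change of −0.18 (SE 0.11, limma adjusted p = 0.204) was not called. It was called lower after correction for GC content (−0.29, limma adjusted p = 0.0406) or transcript length (−0.33, limma adjusted p = 0.0417). In melatonin replicate 1 alone, the one melatonin library with Y-linked transcripts, the difference from vehicle was −0.41. *Nop14* (chr5:34795876-34817506), a structural factor of the same particle, was at 1005, 1207 and 1252 against 1193, 1306 and 1305, with overlap and a change of −0.14 (SE 0.10, limma adjusted p = 0.283). In melatonin replicate 1 alone the difference from vehicle was −0.33.

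**Figure D3:**
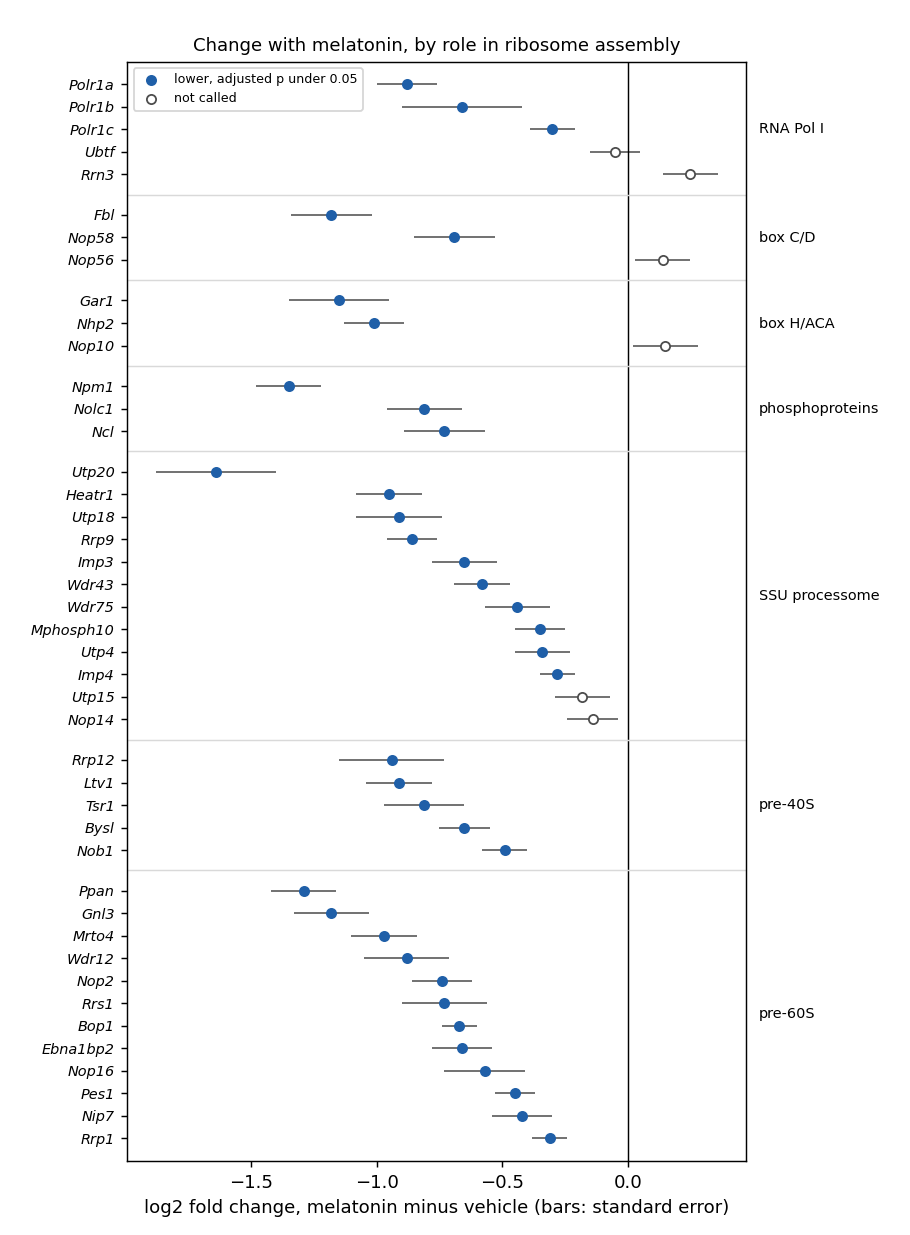
Log2 fold change (melatonin minus vehicle, 3 samples each) with its standard error for each of the 43 genes by role; filled points passed limma's adjusted p under 0.05. All filled points are left of 0, from *Utp20* at −1.64 to *Imp4* at −0.28, and the 6 open points are *Ubtf*, *Rrn3*, *Nop56*, *Nop10*, *Utp15* and *Nop14*.

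All 5 later pre-40S factors, which carry the small subunit precursor out of the nucleus, fell, with a median of −0.81. *Rrp12* (chr19:41847867-41884649), an export factor, was at 475, 904 and 739 with melatonin and at 1172, 1313 and 1448 with vehicle, a log2 fold change of −0.94 (SE 0.21, limma adjusted p = 0.00588). *Nob1* (chr8:108139118-108151692), the nuclease of the last cut of the small subunit RNA, was at 952, 1100.2 and 1151 against 1469, 1523 and 1487, the smallest change of the 5 at −0.49 (SE 0.09, limma adjusted p = 0.0028). In both the groups were apart. *Ltv1*, a factor at the head of the subunit, changed by −0.91, *Tsr1*, a GTPase-like placeholder, by −0.81, and *Bysl*, which binds early and late pre-40S particles, by −0.65. *Bysl* was at 1623, 1633 and 1627 in vehicle, where the samples lay close together, and at 906, 1075 and 1149 with melatonin.

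All 12 pre-60S factors fell too, with a median of −0.70. *Ppan* (chr9:20799471-20803981), needed for early large subunit precursors, was at 495, 699 and 695 with melatonin and at 1561, 1518 and 1502 with vehicle. The samples of the groups were separated by more than the whole range of either. The mean of 629.6 ± 117 (SD, n = 3) was 41.2% of that in vehicle, 1527 ± 30.2, with a log2 fold change of −1.29 (SE 0.13, limma adjusted p = 0.000174). *Gnl3*, or nucleostemin, a GTPase of proliferating and stem cells, was at 674, 1042 and 1004 against 2054, 2039 and 1962, a log2 fold change of −1.18 (SE 0.15, limma adjusted p = 0.000453). *Mrto4*, which holds the place of the stalk proteins, fell by 0.97 on the same scale.

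*Pes1*, *Bop1* and *Wdr12* form one complex needed for processing of the large subunit RNA, and changed by −0.45, −0.67 and −0.88. *Bop1* had tight values on both sides, 2088, 2215 and 2233 with melatonin and 3432, 3428 and 3567 with vehicle (SE 0.07, limma adjusted p = 0.000189). *Wdr12* was at 585, 952 and 906 against 1491, 1463 and 1442, and *Pes1* at 1795, 2045 and 1947 against 2585, 2634 and 2672. No sample of one group entered the range of the other for any of the 3 genes. *Nop2*, an RNA methyltransferase and long used as a proliferation marker, changed by −0.74 (1353, 1870.4 and 1712 against 2620.0, 2716 and 2836). *Rrs1*, which helps bring the small rRNA particle into the precursor, changed by −0.73, *Ebna1bp2* by −0.66, *Nop16* by −0.57 and *Nip7* by −0.42. The calls of *Nip7* without vehicle replicate 1 (−0.40) or 2 (−0.42) and of *Nop16* without vehicle replicate 2 (−0.54) were lost. Both were also lost without limma's trend, at −0.42 for *Nip7* and −0.57 for *Nop16*. With each sample left out in turn, *Nop16* lay between −0.69 and −0.36. *Rrp1* (chr10:78236204-78248919) had the smallest change of the 12 at −0.31 (SE 0.07, limma adjusted p = 0.00562), from 7115, 7337 and 7216 to 5896, 5949.8 and 5601.

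The 3 melatonin samples differed in how far they stood from vehicle. The median of the 43 genes, as the log2 difference from each gene's vehicle mean, was −1.01 in melatonin replicate 1, −0.52 in replicate 2 and −0.58 in replicate 3, and between −0.02 and 0.01 in the vehicle samples. Replicate 1 had the lowest of the 3 melatonin values in 41 of the 43 genes and in 38.9% of all genes tested. The exceptions, *Polr1c* and *Rrp1*, were lowest in replicate 3. In replicates 1, 2 and 3, 42, 38 and 39 of the 43 genes lay below every vehicle value, as did 42.4%, 41.6% and 40.6% of all genes tested. The summed level of the 43 genes was 103548 to 104215 in vehicle and 58716 to 76931 with melatonin. The coefficient of variation had a median of 3.72% in vehicle and 16.9% with melatonin.

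**Figure D4:**
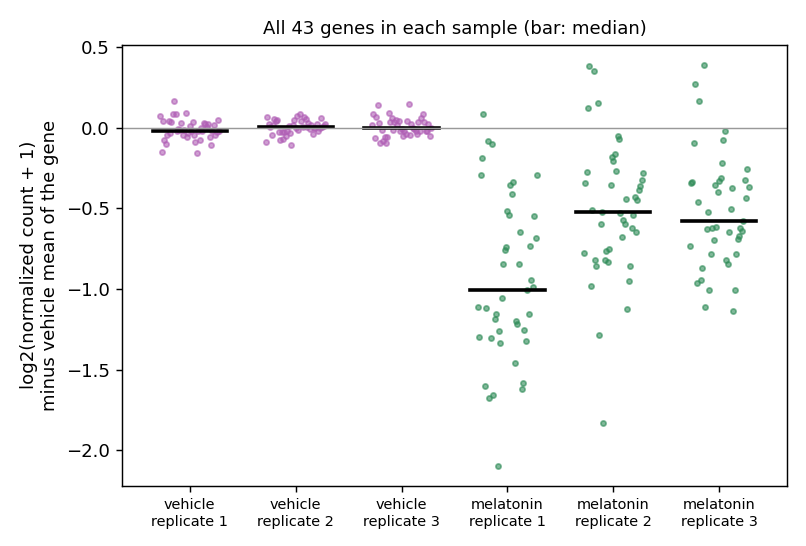
Log2 of normalized count plus 1, minus each gene's vehicle mean, for the 43 genes in each of the 6 samples; each point is a gene and the bar the median. Vehicle medians are within 0.02 of 0, and melatonin medians are −1.01, −0.52 and −0.58.

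Melatonin replicate 1 was also the one melatonin library with Y-linked transcripts, as all vehicle samples had them. Without it, leaving melatonin replicates 2 and 3, 37 genes were lower and 2 higher, with a median of −0.53, and of all 14293 genes tested in that comparison 25.3% were lower and 24.2% higher. There the melatonin libraries held *Xist* and no *Ddx3y*, while all vehicle samples held *Ddx3y*. This difference and treatment cannot be told apart in that comparison. The same limit holds for the 2 genes called higher in it, *Rrn3* and *Nop56*. Without replicates 2 and 3, comparing melatonin replicate 1 with the vehicle samples, 38 were lower and none higher, with a median of −1.01, beside 26.6% lower and 24.2% higher of all 14210 genes tested. In that comparison the spread comes from the vehicle samples only, which varied less than the melatonin samples (3.72% against 16.9%), so its calls say nothing of the spread under melatonin. None of the 43 genes lies on chromosome X or Y, but genes elsewhere can also differ with donor sex, and its part in their values was not tested.

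Other genes of the pathway came from 5 lists, with 134 of the 137 names found and tested. Of these 83 fell, 2 rose and 49 did not pass the test, with a median log2 fold change of −0.36, beside the 24.7% lower and 24.5% higher of all genes. The share lower was 61.9%, compared with 86% of the 43 genes, and the difference of these shares was not tested. As a difference from the vehicle mean, the median of the 134 genes was −0.57 in melatonin replicate 1 and −0.29 in replicates 2 and 3. Among 12 other polymerase I subunits and factors 5 fell (median −0.19), among 12 other snoRNP core and assembly factors 7 (−0.41), among 42 other small subunit factors 25 (−0.32), among 53 other large subunit factors 35 (−0.42), and among 15 genes of the RNA exosome and rRNA trimming 11 (−0.39).

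The largest falls on these lists, among those whose mean over both groups reached 100, were in large subunit factors. Below that mean, larger falls were called in *Npm3*, a large subunit factor (−2.33), and *Naf1*, a snoRNP factor (−1.74). *Npm3* had a mean of 145 in vehicle and 29.4 with melatonin, and *Naf1* of 68.3 and 19.9. *Mdn1*, the giant ATPase that strips assembly factors from pre-60S particles, was at 87.8, 95.1 and 122.6 with melatonin and at 381, 261 and 269.6 with vehicle, a log2 fold change of −1.56 (SE 0.20, limma adjusted p = 0.000404). *Mybbp1a*, a nucleolar protein of rRNA processing, was at 1751, 2448 and 2517 against 5002, 5078 and 5381 (−1.22, SE 0.13, limma adjusted p = 0.00021), and *Nle1*, a substrate of *Mdn1*, changed by −1.10 (SE 0.14, limma adjusted p = 0.000464). All 3 groups of melatonin values were below vehicle. The 2 that rose were the helicase *Ddx24* at 0.30 (SE 0.08, limma adjusted p = 0.0119) and *Eri1*, an exonuclease that trims the end of a ribosomal RNA, at 0.39 (SE 0.10, limma adjusted p = 0.0137). The call of *Eri1* was lost without vehicle replicate 3, without limma's trend, and after the transcript length correction (0.23), and in melatonin replicate 1 alone its difference was 0.19.

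**Figure D5:**
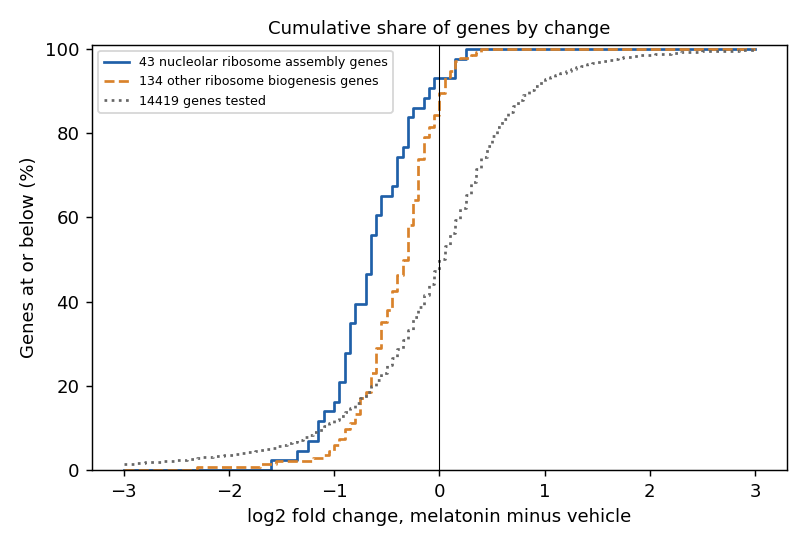
Cumulative share of genes (percent) at or below each log2 fold change, for the 43 nucleolar ribosome assembly genes, the 134 other ribosome biogenesis genes and all 14419 genes tested. The medians are −0.67, −0.36 and −0.005, and beyond −1.64 on the left the 43 genes have no member while the line of all genes continues.

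Promoters of all 43 genes, from 250 bases before to 50 bases after the canonical start, were searched on both strands for 4 motifs, none of which contains another. The E-box CACGTG was in 9 of 43 (20.9%), in 10.1% of the 12051 promoters of tested protein-coding genes and in 7.82% of all 21757. The ETS core CCGGAAG was in 13 (30.2%), against 16.2% and 10.3%. The TATA box letters TATAAA were in 5 (11.6%), against 8.14% and 13.2%, and the NRF1 core was in 0, against 1.95% and 1.16%. The TATAAA matches of these 5 genes began at positions from −222 (*Nop58*) to −97 (*Ppan*), and whether any acts as a TATA box was not tested. Of the 9 genes with an E-box 7 fell, with a median log2 fold change of −0.58, and of the 34 without it 30 fell, with a median of −0.71. Over all tested promoters 26.9% of the genes with an E-box fell and 24.3% of those without. The E-box genes were *Nop2*, *Nop56*, *Rrn3*, *Imp4*, *Ebna1bp2*, *Fbl*, *Rrs1*, *Wdr43* and *Pes1*, with log2 fold changes from *Fbl* at −1.18 to *Imp4* at −0.28 among those that fell, and with *Nop56* and *Rrn3* not called. Of the 13 genes with an ETS core 12 fell, with a median of −0.81, and of the 30 without it 25, with a median of −0.65. Over all tested promoters the shares lower were 23.5% with the ETS core and 24.8% without. A match is a stretch of letters and was not tested for binding.

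Reads on the other strand may enter some values, since the sources used here do not call the library kit stranded. Exons of 20 of the 43 genes share bases with another listed gene on the opposite strand, such as *Nhp2* with *Rmnd5b* (967 bases), *Tsr1* with *Srr* (2033 bases) and *Bop1* with *Hsf1* (522 bases).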

How the data were processed

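Bulk RNA sequencing of 6 samples was used. The authors trimmed reads (Partek Flow), aligned these by STAR to the mm39 build and used the Partek E/M algorithm with Gencode M33 to assign reads to genes. The authors removed low genes and divided by a size factor per sample that DESeq2 had computed by median ratios. Their deposited values, a signal per gene, are called normalized counts here. At a tolerance of 0.01, 63.4% to 66.0% of values per sample were whole multiples of 1 read, so a count model was not the main test. Groups were compared in R 4.3.3 by limma 3.58.1 (lmFit, eBayes with trend), on log2(normalized count + 1), for genes with at least 10 in at least 1 sample, with Benjamini-Hochberg adjustment over 14419 genes and a threshold of 0.05. The exact permutation test of 3 against 3 cannot go below 0.1 and was not used to call genes. It was computed for the partner ratios but is not read, since those pairs were chosen after their values were seen. Fold changes are on that log2 scale. Gene positions, coding lengths and promoters came from GENCODE M39 on GRCm39, in which 16334 of 16381 genes matched. Python packages were numpy 2.4.6, scipy 1.17.1, pandas 2.3.3 and, for drawing, matplotlib 3.10.9. The script was tested on simulated data.

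The 43 genes and all lists were chosen with earlier results of these data known. Genes given by sample were the 3 largest falls and rises called, the 5 highest means and, in each role, the largest and smallest change, with further genes of the same complexes added after their values were seen; genes whose call turned on 1 sample, and the 3 largest falls and rises called on the other lists with a mean of at least 100, were named. Alternatives were pseudocounts of 0.1 and 10, other filters and scalings, limma without trend or with sample weights, a replicate block, each sample left out and stricter thresholds; voom, corrections for transcript length and GC content (lowess, span 0.3) and a comparison of only the libraries with Y-linked transcripts were added after seeing the data.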

Additional observations from a re-analysis of the deposited data

How the results depend on the processing

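Across 20 alternatives the direction and call of the 43 genes were kept in 820 of 860 gene and alternative pairs, with the call lost in 26, gained in 9 and the sign turned in 5. Between 30 and 37 genes were lower in fits with at least 2 samples per group, beside 18.9% to 28.7% of all genes tested. Stricter thresholds gave 29 genes at an adjusted p under 0.01 and 28 where the log2 change also had to reach 0.5. No share of all genes is given for these thresholds. The median of the 43 genes was between −0.53 and −1.01, the latter only with the libraries that hold Y-linked transcripts. Genes called higher numbered 1 with the transcript length correction (*Nop10*) and 2 with sample weights (*Rrn3* and *Nop56*), and 0 to 2 with samples left out. The polymerase I genes called lower were 1 at an adjusted p under 0.01 and 1 to 3 with samples left out. Processome genes called lower were 6 at that threshold, 6 where the log2 change also had to reach 0.5, and 6 to 10 with samples left out, the lowest of both without vehicle replicate 1. Of the other ribosome biogenesis genes, 51 were lower at that fold. Those called higher were 1 without the trend, 1 with only the Y-linked libraries, 0 at an adjusted p under 0.01, 0 at that fold, and 1 to 3 with samples left out. *Ubtf*, never called, was at 0.02 with the GC correction and 0.02 with sample weights, and between −0.14 and 0.01 with samples left out. With only the Y-linked libraries *Nop56* was at −0.08 and *Nop10* at −0.10. The cause of these shifts was not tested.

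Replicate numbers did not pair the samples: deviations of same-numbered samples correlated at −0.05, 0.01 and −0.05. A replicate block gave 37 genes lower with a median of −0.67, and 3278 lower and 3160 higher over all genes, beside 3565 and 3529 without it.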
